A study of Mus musculus with 7 samples.

Results

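The feedback genes of the ERK (extracellular signal-regulated kinase) pathway described here are 7 dual-specificity phosphatase genes (Dusp1, Dusp2, Dusp4, Dusp5, Dusp6, Dusp7 and Dusp10) and 3 Sprouty genes (Spry1, Spry2 and Spry4). They were taken by symbol from the deposited table, and all 10 were among its 16760 genes. The set was chosen by function with the log2 fold changes of the same comparison known, lower values of Dusp5 and Spry2 among them. The differences of its members between the groups are therefore given as a description, without a test.

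RNA sequencing was done on mouse cells negative for CD150, the surface protein encoded by Slamf1, with HSC (haematopoietic stem cell) as their labelled cell type. Of the 7 libraries, 4 came from wild-type cells (WT) and 3 from cells lacking part of chromosome band 5G2 (5G2del), a segment syntenic to human 7q22. All were of strain C57/B6. Per the labels' protocols, total RNA was amplified with the Ovation system and read as paired ends, so counts are of amplified reads, and the labels name no further sort marker. No source used here states the ends or zygosity of the deletion, the age of the animals or whether each library is a separate animal, so the spread between libraries may be partly technical. Letters tell the libraries of a group apart (5G2del-A, -B and -C, and WT-A to WT-D), since the table shows the group of each column but not its sample.

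Growth factor receptors switch on the small GTPase Ras, which activates the kinases RAF, MEK and ERK in turn. ERK raises transcription of its own inhibitors. Dual-specificity phosphatases remove the activating phosphates from ERK or from the related stress kinases p38 and JNK, and Sprouty proteins restrain signalling between receptor and RAF. Transcripts of several of these genes are widely read as a sign of ERK activity, and in blood progenitors the pathway carries signals from KIT, FLT3 and other cytokine receptors. ERK activity itself was not measured here.

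Library sizes behind the values ran from 34865420 to 55716549 counts. A floor of 3 counts lay between 0.0538 and 0.0860 CPM (counts scaled to library size), for counting error only. Genes without any count numbered 1104 in WT-B, and 83 to 492 in each other library. Transcripts of the progenitor markers Kit, Ly6a, Cd34, Flt3, Procr, Cd48 and Slamf1 were all measured, with a summed level of 918 to 1111 CPM in 5G2del and 852 to 1205 in WT. Slamf1, in cells labelled CD150-negative, was at 0.40 to 0.65 log2 CPM in 5G2del and -2.22 to -0.26 in WT. Every 5G2del library lay above every WT library for this gene, as for 2.92% of all genes. Of the 7 markers, 5 were higher by mean in 5G2del, among them Cd48 with a log2 difference of 0.99 ± 0.42 (SE). The 2 lower ones, Ly6a and Flt3, had -0.42 ± 0.31 and -0.20 ± 0.24.

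None of the members lies on chromosome 5. In the GENCODE annotation of mm10, Dusp5 is at chr19:53529109-53542431 (plus strand), Dusp6 at chr10:99263231-99267489 (plus), Dusp7 at chr9:106368632-106375724 (plus) and Dusp1 at chr17:26505590-26562128 (minus). Dusp2 is at chr2:127336159-127338376 (plus), Dusp4 at chr8:34807297-34819894 (plus) and Dusp10 at chr1:184013302-184075636 (plus). Spry1 is at chr3:37639947-37644598 (plus), Spry2 at chr14:105891947-105896819 (minus) and Spry4 at chr18:38586247-38601415 (minus). All are annotated as protein-coding. Their values count reads over the whole gene. Strand is not stated for the counting, so reads of a gene and of an overlapping gene on the other strand cannot be told apart. Measured genes overlap Dusp5 (AC137853.2, an antisense transcript across its first exon), Dusp10 (1700056E22Rik) and the far end of the annotated Dusp1 (Ergic1), each on the opposite strand.

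Dusp5, the phosphatase that acts on ERK in the nucleus, was lower in 5G2del. It measured 3.23, 2.92 and 2.68 log2 CPM in the A, B and C libraries of 5G2del, and 4.12, 4.18, 4.66 and 3.72 in WT-A, WT-B, WT-C and WT-D. No 5G2del library reached the lowest WT library, with 264 to 394 expected counts against 639 to 966. Over all genes, 2.78% lay below WT in this way. The means were 2.94 ± 0.27 (SD, n = 3) and 4.17 ± 0.38 (SD, n = 4), a log2 difference of -1.22 ± 0.27 (SE), or 0.428 of the WT level. With 1 library left out the difference ran from -1.37 to -1.06. Groups that lie apart over all 7 libraries must stay apart with 1 left out, so their separation was not examined in this way. The antisense AC137853.2 was far lower, at -1.34 to 0.66 log2 CPM over the 7 libraries, and its groups overlapped.

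The 4 promoter stretches below show the upstream sequence of Dusp5, of Spry2, which was lower in 5G2del by mean, and of Dusp6 and Dusp1, whose groups overlapped more widely. They are RefSeq sequence of build GRCm38.p6, from 250 bases before the RefSeq start site up to that site, or up to the first exon base of the gene in GENCODE where that comes earlier. Capitals mark matches, on either strand, to the CArG box (the site of serum response factor), TGACGTCA (cAMP response element) and TGANTCA (AP-1). They also mark CCGGAA (a strict form of the ETS site), GGGCGG (GC box) and CACGTG (E-box). Where matches touch, their capitals run together. The stretches are chr19:53528895-53529108 (plus strand), chr14:105896820-105897069 (minus), chr10:99262981-99263230 (plus) and chr17:26508520-26508722 (minus).
Dusp5: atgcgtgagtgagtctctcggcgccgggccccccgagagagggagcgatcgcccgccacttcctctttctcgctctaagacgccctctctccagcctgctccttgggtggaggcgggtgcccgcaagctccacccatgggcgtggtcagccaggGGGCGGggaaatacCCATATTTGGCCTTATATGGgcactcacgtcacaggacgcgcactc
Spry2: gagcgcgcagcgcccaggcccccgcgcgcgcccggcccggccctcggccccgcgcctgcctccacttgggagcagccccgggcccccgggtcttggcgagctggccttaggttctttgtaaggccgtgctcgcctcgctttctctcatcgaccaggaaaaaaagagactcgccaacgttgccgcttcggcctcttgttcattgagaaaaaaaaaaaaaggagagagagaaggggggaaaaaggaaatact
Dusp6: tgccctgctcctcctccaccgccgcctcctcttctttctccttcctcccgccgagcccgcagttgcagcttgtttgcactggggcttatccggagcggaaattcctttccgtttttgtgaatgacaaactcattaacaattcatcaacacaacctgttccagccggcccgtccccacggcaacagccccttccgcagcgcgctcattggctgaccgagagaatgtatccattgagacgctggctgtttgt
Dusp1: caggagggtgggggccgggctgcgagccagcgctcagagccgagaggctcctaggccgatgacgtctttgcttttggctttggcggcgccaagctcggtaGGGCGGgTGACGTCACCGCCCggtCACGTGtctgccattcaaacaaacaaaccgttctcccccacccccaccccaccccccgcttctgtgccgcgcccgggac

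Dusp5 carried 2 CArG boxes side by side, at 82 to 73 and 72 to 63 bases before its RefSeq start, and a GC box at 96 to 91. A CArG box was found in 1.47% of the 32851 promoters of the same length in the table, and in none of the other 7 members listed there. Dusp1 carried a cAMP response element at 143 to 136 bases before its start, which 1.55% of promoters held, with an E-box (6.02% of promoters) and 3 GC boxes (32.7%), the last of which lies outside the stretch shown. Spry2 and Dusp6 held no match to the 6 motifs in their 250 bases. The AP-1 site (6.75% of promoters) and CCGGAA (12%) were found in none of the 8 members listed. The shorter ETS letters GGAA, which occur in the Dusp5, Spry2 and Dusp6 stretches, were not searched for, so absence of ETS sites is not shown. Dusp2 had an E-box and 3 GC boxes, Dusp10 had 2 GC boxes, Spry1 had 1 and Dusp7 had none of the motifs. These matches describe letters in a window and do not show binding.

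Dusp6 and Dusp7, the ERK-directed phosphatases of the cytoplasm, did not show the separation seen for Dusp5. Dusp6 measured 5.76, 4.79 and 5.13 log2 CPM in 5G2del-A, -B and -C and 5.37, 5.10, 5.45 and 5.46 in WT-A to WT-D. The highest and the lowest Dusp6 values were both in 5G2del libraries. Its log2 difference was -0.12 ± 0.23 (SE), which turned to 0.10 without 5G2del-B and was -0.39 without 5G2del-A. Dusp7 ran from 2.91 to 3.97 in 5G2del, and WT values from 2.89 to 3.70, with a log2 difference of 0.09 ± 0.32 (SE) that turned to -0.14 without 5G2del-A and to -0.08 without WT-C and was 0.39 without 5G2del-C. 5G2del-A, where both genes were highest, also had the highest summed neutrophil and monocyte markers, at 1579 CPM against 166 to 534 in the other libraries. Of that list, 10 of 14 genes were measured and 5 were at 0 in at least 1 library. All 10 had a higher mean in 5G2del (median log2 difference 1.97), and 6 of 10 without 5G2del-A (median 0.21). The part of these markers in the Dusp6 and Dusp7 values was not tested.

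Per kilobase of exons and on the linear scale, Dusp5 made up 14.7%, 19.7% and 16.2% of the summed Dusp5, Dusp6 and Dusp7 level in 5G2del-A, -B and -C, and 29.2%, 34.3%, 38.6% and 22.9% in WT-A to WT-D. The shares of the nuclear enzyme did not overlap between groups, which follows from the Dusp5 values themselves. The share of Dusp6 was 64.6% ± 6.90 (SD, n = 3) in 5G2del and 54.9% ± 3.96 (SD, n = 4) in WT, and that of Dusp7 was 18.6% ± 4.79 and 13.8% ± 3.75.

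**Figure D1:**
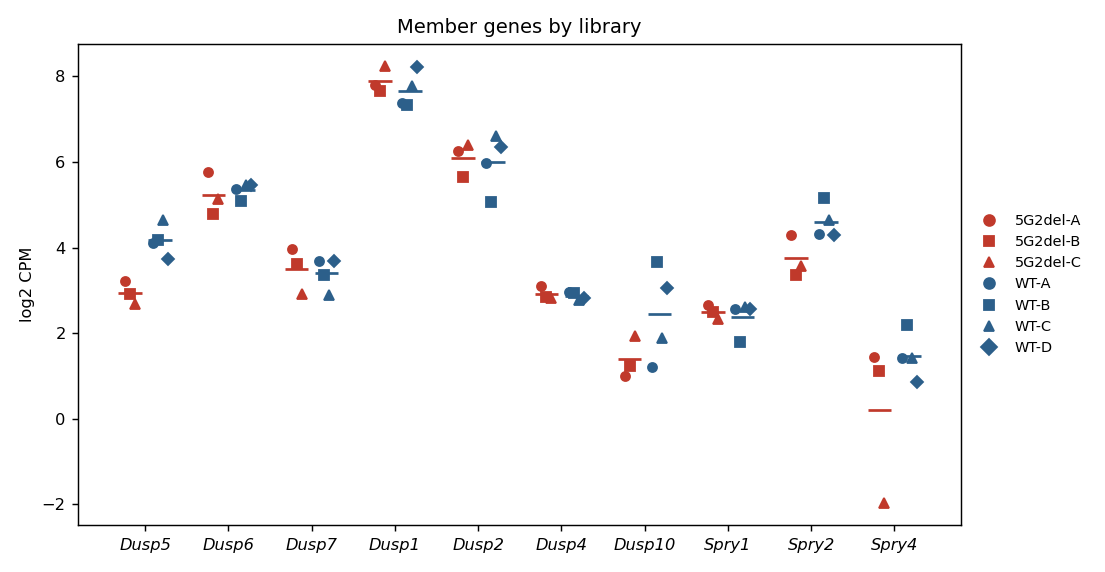
Log2 CPM (vertical axis) of each member in the 7 libraries, red for 5G2del and blue for WT, with 1 marker shape per letter and a bar at each group mean. The red points lie below all blue points for Dusp5, from 2.68 to 3.23 against 3.72 to 4.66, and 1 Spry4 point, 5G2del-C, lies at -1.97.

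Dusp1, Dusp2 and Dusp4 encode nuclear phosphatases of the family that are induced quickly by stimuli. Dusp1, which acts on p38 and JNK as well as ERK, was the most abundant member, at 7.79, 7.65 and 8.25 log2 CPM in 5G2del-A, -B and -C and 7.37, 7.33, 7.77 and 8.21 in WT-A to WT-D. Its log2 difference of 0.23 ± 0.23 (SE) was no larger than its error, and ran from 0.06 without 5G2del-C to 0.41 without WT-D. Dusp2, known from activated leukocytes, measured 6.27, 5.64 and 6.39 in 5G2del and 5.97, 5.06, 6.62 and 6.35 in WT. The lowest Dusp2 value was in WT-B, and its log2 difference of 0.10 ± 0.33 (SE) turned to -0.21 without that library and to -0.04 without 5G2del-C, and was 0.33 without 5G2del-B. Dusp4 was the steadiest member, from 2.83 to 3.09 in 5G2del and from 2.77 to 2.97 in WT. Its residual SD within groups was 0.12 on the log2 scale, against a median of 0.32 for 10358 genes whose mean log2 CPM was over 2, and its log2 difference was 0.05 ± 0.26 (SE), or -0.04 without 5G2del-A.

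The levels of Dusp1 and Dusp2 went with the summed level of genes that respond to the handling of cells, and with the summed level of ERK output genes. The 15 genes of the dissociation stress list (among them Fos, Jun, Egr1, Ier2 and Zfp36, all measured) summed to 2795, 1863 and 3664 CPM in 5G2del-A, -B and -C and to 1886, 1380, 3411 and 3172 CPM in WT-A to WT-D. The same 4 libraries, 5G2del-A, 5G2del-C, WT-C and WT-D, were the highest for the summed list, for Dusp1 and for Dusp2, and WT-B was the lowest for all of them. These libraries come from both groups. The list of ERK transcriptional output, described below, summed to 1944, 1416 and 2179 CPM in 5G2del-A, -B and -C. In WT-A to WT-D it summed to 1459, 1299, 2256 and 1972 CPM, so the same 4 libraries were highest and WT-B lowest. Fos, Egr1, Ier2, Ier3 and Junb are in both lists, and Egr1 and Fos are abundant, so the summed lists cannot be told apart here. Output genes outside the stress list did not all follow this order. Etv5 and Srf were highest in WT-B, at 4.84 and 4.18 log2 CPM, and Myc was lowest in WT-D, at 7.68. Egr3, in contrast, was lowest in WT-B, with 0 counts. The part of the genes of either list in the Dusp1 and Dusp2 values was not tested.

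**Figure D2:**
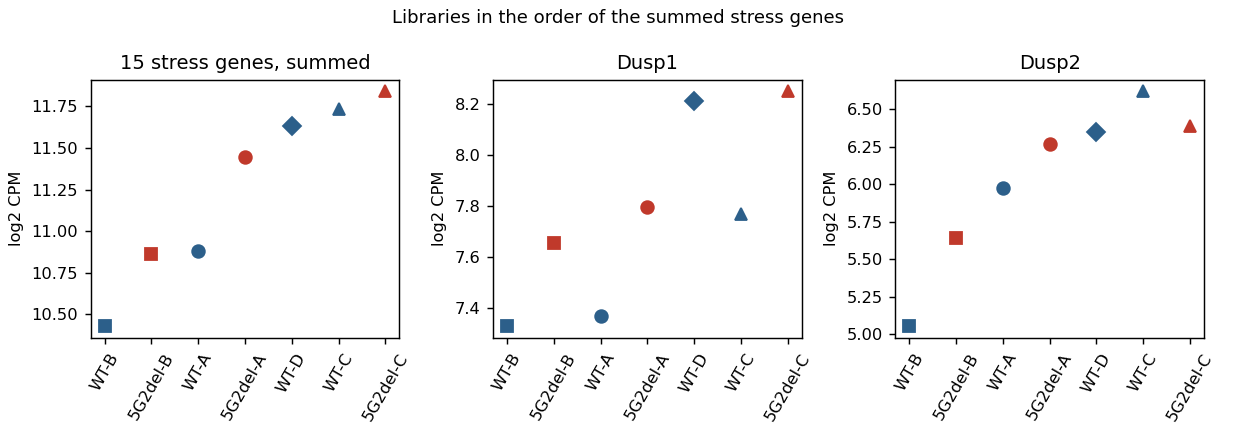
Log2 CPM (vertical axes, each on its own range) of the 15 summed stress genes, Dusp1 and Dusp2, with the libraries on the horizontal axis in the order of the summed list, red for 5G2del and blue for WT. The 4 libraries on the right are the highest in all panels, and WT-B is the lowest.

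Dusp10 encodes a phosphatase that prefers p38 and JNK to ERK. It measured 0.99, 1.23 and 1.93 log2 CPM in 5G2del-A, -B and -C and 1.21, 3.65, 1.89 and 3.06 in WT-A to WT-D. WT-B and WT-D were high, while WT-A and WT-C lay within the 5G2del range. The log2 difference was -1.07 ± 0.57 (SE), and -0.67 without WT-B. The overlapping 1700056E22Rik ran from -1.13 to 1.13 log2 CPM, and it too was highest in WT-B. In WT-D, where Dusp10 was also high, 1700056E22Rik was low, at -0.87.

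Among the Sprouty genes, Spry2 was the most abundant and was lower by mean in 5G2del. It measured 4.292, 3.37 and 3.58 log2 CPM in 5G2del-A, -B and -C and 4.31, 5.16, 4.63 and 4.291 in WT-A to WT-D. The groups met at 5G2del-A and WT-D, whose values were almost equal, and the other 5G2del libraries lay below all WT libraries. The means were 3.75 ± 0.48 (SD, n = 3) and 4.60 ± 0.40 (SD, n = 4), a log2 difference of -0.85 ± 0.29 (SE), or 0.554 of the WT level. With quantile normalization, with each library centred on its median, without 5G2del-A and without WT-D, Spry2 no longer overlapped. The share of all genes below WT was then 3.09%, 3.41%, 6.55% and 4.77%. With 1 library left out its difference ran from -1.13 to -0.66.

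Spry4 was the least abundant member, and its difference rested on 1 library. It measured 1.44, 1.12 and -1.97 log2 CPM in 5G2del-A, -B and -C, and 1.41, 2.19, 1.42 and 0.85 in WT-A to WT-D. 5G2del-C held 10 counts of Spry4, against 87 to 189 in the other libraries. The log2 difference was -1.27 ± 0.79 (SE) with all libraries and -0.19 without 5G2del-C.

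Spry1 was close in both groups, with 5G2del libraries at 2.32 to 2.67 log2 CPM, WT-A, WT-C and WT-D at 2.56 to 2.60, and WT-B apart at 1.78. Its log2 difference was 0.12 ± 0.34 (SE), and ran from -0.08 without WT-B to 0.21 without 5G2del-C. The 3 Sprouty genes summed to 28.7, 18.2 and 17.2 CPM in 5G2del-A, -B and -C and to 28.4, 43.7, 33.6 and 27.3 in WT-A to WT-D. Per kilobase, Spry2 made up 73.6% ± 5.52 (SD, n = 3) of the Sprouty level in 5G2del and 82.2% ± 4.65 (SD, n = 4) in WT.

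Of the 10 members, 5 had a lower mean in 5G2del (Dusp5, Dusp6, Dusp10, Spry2 and Spry4) and 5 a higher one, while 46.7% of all genes were lower. The members' median log2 difference was -0.04, against 0.03 over all genes. Groups did not overlap for 1 member, Dusp5, which was below WT, and 2.78% of all genes lay below WT in this way and 2.92% above it. In the fit over all genes with limma-trend, 0 of 16760 genes, or 0%, passed an adjusted p of 0.05 (lowest adjusted p = 0.151), and 656 genes, or 3.91%, had an unadjusted p under 0.05. The authors' deposited table likewise held 0 genes past 0.05. The members were chosen with this contrast in view, so nothing is read from their counts. In these bulk libraries, fewer cells of a type and less RNA per cell cannot be told apart.

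**Figure D3:**
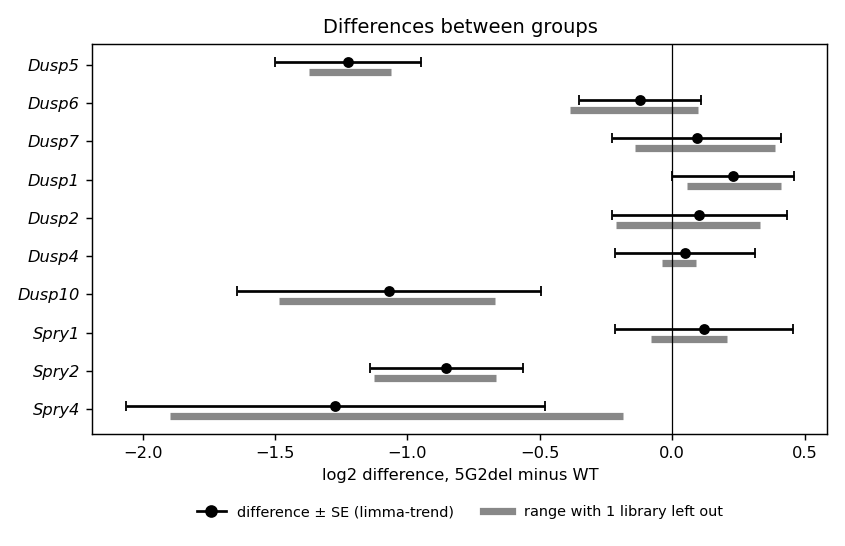
Log2 difference, 5G2del minus WT (horizontal axis), of each member, with the point and bar giving the limma-trend estimate ± SE and the grey bar the range with 1 library left out. The grey bars of Dusp5 (-1.37 to -1.06), Spry2, Dusp10, Spry4 and Dusp1 keep to 1 side of 0, and those of the other 5 members cross it.

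The members differed widely in level. Levels between genes were compared as log2 of CPM per kilobase of annotated exons, with all 7 libraries. Dusp1 was highest, at 6.04 ± 0.36 (SD, n = 7), followed by Dusp2 at 5.04 ± 0.54 and Dusp6 at 3.65 ± 0.32. Spry2 was at 3.17 ± 0.61, Dusp5 at 2.34 ± 0.73, Dusp7 at 1.70 ± 0.41 and Dusp4 at 1.44 ± 0.11. The lowest were Spry1 at 0.89 ± 0.30, Dusp10 at 0.39 ± 1.01 and Spry4 at -1.32 ± 1.34. The order was the same with the longest transcript in place of all exons. Dusp1 exceeded Dusp2 in 7 of 7 libraries, by 1.00 ± 0.39 (SD of the paired differences), and Dusp2 exceeded Dusp6 in 7 of 7. Neighbours whose difference was within its SD were Dusp6 and Spry2, Dusp5 and Dusp7, Dusp7 and Dusp4, and Spry1 and Dusp10. Dusp5 exceeded Dusp7 in 5 of 7 libraries, by 0.64 ± 0.89, and both exceptions were 5G2del libraries. These were 5G2del-A and -B, while 5G2del-C kept the WT order, at 1.37 for Dusp5 and 1.17 for Dusp7. The means were 1.64 ± 0.27 (SD, n = 3) for Dusp5 and 1.75 ± 0.54 for Dusp7 in 5G2del, within their spread. In WT they were 2.86 and 1.66. Spry1 and Dusp10 had means of 0.96 and -0.22 in 5G2del and of 0.84 and 0.85 in WT. The near-equal WT means hide opposite orders. Dusp10 was lower than Spry1 in WT-A (-0.40 against 1.02) and WT-C, and higher in WT-B (2.05 against 0.24) and WT-D. Dusp1 alone made up 52.3% ± 6.0 (SD, n = 3) of the summed member level per kilobase in 5G2del and 44.5% ± 5.39 (SD, n = 4) in WT.

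**Figure D4:**
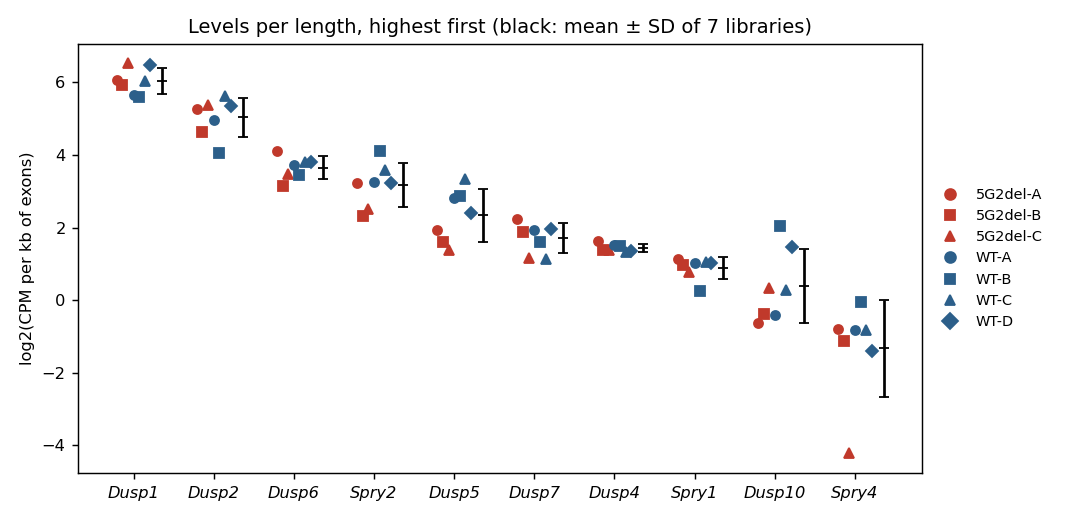
Log2 of CPM per kilobase of exons (vertical axis) for each member, in order of the mean over 7 libraries, red for 5G2del and blue for WT, with the mean ± SD in black at the right of each gene. Dusp1 and Dusp2 lie above the other members on average, at 6.04 and 5.04, and the spread is widest for Spry4 and Dusp10.

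Whether members rose and fell together from library to library was examined within the groups, on deviations from the group means, so that the contrast itself played no part. Over the 45 pairs, 26 correlations were positive and 19 negative. By exact permutation of libraries within groups (two-sided, n = 7, smallest possible p = 0.00694), no single pair could reach an adjusted p below 0.3125. Of the pairs, 0 passed a Benjamini-Hochberg adjusted p of 0.05, and 1 pair had an unadjusted p under 0.05. That pair, Dusp1 and Spry4, had r = -0.71 (exact p = 0.0417, adjusted p = 0.740) and rho = -0.54 (exact p = 0.153), with r = -0.22 without the 2 libraries farthest from the Dusp1 median, so the relation rests on them. Dusp5 and Spry2 had r = 0.51 (exact p = 0.264, adjusted p = 0.740) and rho = 0.61 (exact p = 0.222), with r = 0.64 without the 2 farthest libraries. The count of 0 therefore does not show whether single pairs of these genes varied together.

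Genes with the profile most like a member were sought among 10357 others with a mean log2 CPM over 2, by the root mean square difference of centred log2 CPM over the 7 libraries. For Dusp5 the closest were Nlrp1a (0.19), an inflammasome sensor, Hdac9 (0.21), a class II histone deacetylase, and Arrdc3 (0.24), an arrestin-domain protein, where the median gene was at 0.75. For Spry2 the closest genes were Gm16867 (0.19), Acad12 (0.19) and Prkrip1 (0.20), against a median of 0.64. Acad12 and Prkrip1 both lie on the chromosome that carries the deletion, at chr5:121596775-121618938 and chr5:136178127-136198963 (mm10, minus strand). For Dusp6 they were Zfyve26 (0.10), Inpp5k (0.10) and Tmem173 (0.10), the last encoding the DNA-sensing adaptor STING, against a median of 0.43. The distance includes the difference between the groups, and the smallest of so many distances are small by selection.

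The rest of the pathway was examined through 7 signalling lists, with 85 distinct genes measured. Their means were lower in 5G2del for 41 and higher for 44 (median log2 difference 0.04). In limma-trend 0 of them passed an adjusted p of 0.05, with a lowest adjusted p of 0.989, and 0 had an unadjusted p under 0.05. Groups did not overlap for 2 of the 85, or 2.35%, against 5.70% of all genes. Both were kinases that activate MAP kinases, and both were above WT: Map2k1 (MEK1, which activates ERK) with a log2 difference of 0.27 ± 0.18 (SE), and Map2k7, which activates JNK, with 0.37 ± 0.18.

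Further phosphatases gave no calls. Dusp16, a JNK and p38 phosphatase and the measured one of the 3 remaining MAP kinase phosphatases, had a log2 difference of -0.31 ± 0.28 (SE), or -0.19 without WT-A and -0.48 without WT-B, and Dusp8 and Dusp9 were not analysed here. Of 12 measured atypical phosphatases and their slingshot relatives, 7 were lower (median -0.08), with the cofilin phosphatases Ssh2 at -0.35 ± 0.17 (-0.22 without 5G2del-B) and Ssh1 at -0.33 ± 0.24 (-0.18 without WT-B). Of 11 other ERK feedback inhibitors, 4 were lower and 7 higher (median 0.25). Among them, Dok2, a docking protein that recruits Ras GTPase activators, had 0.50 ± 0.25 (0.30 without WT-A) and Lztr1, which aids Ras degradation, 0.33 ± 0.23. The Sprouty-related Spred1 and Spred2 had -0.09 ± 0.20 (0.03 without 5G2del-C) and 0.28 ± 0.22 (0.10 without WT-C).

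The cascade itself was measured in full, with 22 of 22 listed genes, 13 of them lower (median -0.07). Besides Map2k1, the adaptor Gab2 had a log2 difference of 0.43 ± 0.24 (SE), which was 0.24 without WT-B. That of the RAF-activating scaffold Shoc2 was -0.35 ± 0.22, or -0.23 without 5G2del-B and -0.54 without 5G2del-A. Of 10 p38 and JNK pathway kinases, 4 were lower (median 0.16), with Mapk11, a p38 kinase, at 0.89 ± 0.65 (0.55 without 5G2del-A).

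The list of transcriptional output held both genes that ERK is known to induce and factors through which it acts, such as Srf, Elk1, Elk3 and Elk4. Of its 19 measured genes 10 were lower and 9 higher, with a median of -0.01. Elk3, an ETS factor that ERK phosphorylates, had a log2 difference of -0.28 ± 0.15 (SE) and Phlda1 of 1.35 ± 0.84 from a low level (0.59 without WT-B). The classic output genes Etv5, Myc, Fos and Egr1 had -0.43 ± 0.32, -0.01 ± 0.19, -0.02 ± 0.31 and 0.44 ± 0.47, and their groups overlapped. Without WT-B, Etv5 was at -0.20 and Egr1 at 0.07, while Myc turned to 0.16 without 5G2del-C and Fos to 0.25 without 5G2del-B. Of the 15 stress genes 4 were lower and 11 higher (median 0.26), with Jun at 0.52 ± 0.25 (0.32 without 5G2del-C) and the heat shock gene Hspa1b at 2.42 ± 1.34 (1.08 without WT-C and 1.38 without 5G2del-B).

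**Figure D5:**
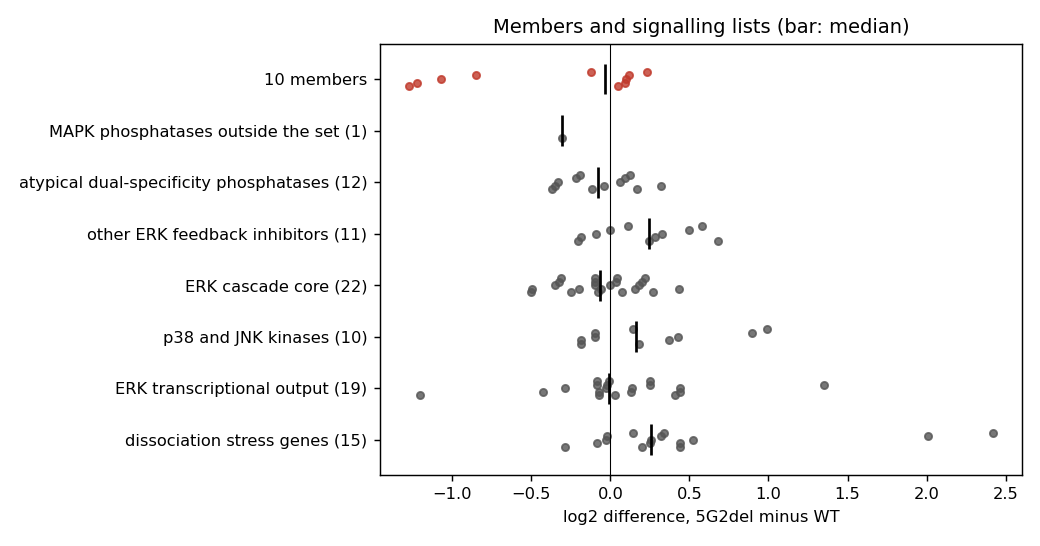
Log2 difference, 5G2del minus WT (horizontal axis), of each measured gene of the 7 signalling lists (grey) and of the 10 members (red), with a bar at the median and the number of measured genes in brackets. The list medians lie between -0.31 and 0.26, and 4 members lie left of the rest of the set, between -1.27 and -0.85.

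Markers of other blood cells differed between libraries, with 0 genes passing an adjusted p of 0.05 in limma-trend (lowest adjusted p = 0.989). T and NK markers (6 of 12 measured) summed to 15.5 to 19.7 CPM in 5G2del and 17.95 to 24.5 in WT. Cd3e, Cd3d and Cd3g were not among the genes measured. Of these 6 genes, 4 were lower by mean and 2 higher. The 2 higher genes, Thy1 and Klrb1c, had log2 differences of 1.18 ± 0.74 (SE) and 0.49 ± 0.78, and Cd4 had -0.02 ± 0.49. In every 5G2del library 2 of the 6 lay below WT, as did 2.78% of all genes. Lck, a kinase of T cell receptor signalling, had a log2 difference of -0.50 ± 0.26 (SE), and Il2rb, an interleukin receptor chain, held 0 to 2 counts in 5G2del and 5 to 33 in WT.

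Macrophage and dendritic cell markers (7 of 10 measured) summed to 14.8 to 24.5 and 13.7 to 25.2 CPM, with 3 genes at 0 in at least 1 library. Of these 7 genes, 4 were lower by mean and 3 higher. The macrophage genes Cd163 and C1qb lay below WT in every 5G2del library, as did 2.78% of all genes. Cd163, a scavenger receptor, had a log2 difference of -1.14 ± 0.54 (SE). The complement gene C1qb had -1.64 ± 0.88, or -0.99 without 5G2del-A. The 3 higher genes, Vcam1, Itgax and the complement gene C1qa, had 2.04 ± 1.92, 1.29 ± 1.55 and 1.21 ± 1.54. Erythroid markers (11 of 12 measured, 3 at 0 in at least 1 library) were lower by mean in all 11, with 53.2 to 120 CPM against 97.1 to 266, but in 5 of 11 without 5G2del-C. B lineage markers (6 of 10 measured, 4 at 0 in at least 1 library) summed to 56.9 to 536 and 31.4 to 133 CPM. Of these, 5 were higher by mean in 5G2del and 1, Ebf1, was lower, at -0.71 ± 1.90 (SE). Igkc, an immunoglobulin gene, had a log2 difference of 6.83 ± 2.07, with 380 to 7643 counts against 0 to 604, and its groups overlapped. The summed megakaryocyte and stromal markers overlapped between groups, at 308 to 385 against 223 to 415 CPM and at 267 to 315 against 224 to 338. Of 9 measured megakaryocyte genes, 6 were higher by mean and 3 lower. Treml1, a platelet receptor, held 35 to 86 counts in 5G2del and 0 to 2 in WT. Over all genes, 2.92% lay above WT without overlap. The integrin Itga2b had a log2 difference of 0.93 ± 0.40 (SE). The 3 lower genes, Itgb3, Ppbp and Gp1ba, had -0.73 ± 0.42, -0.66 ± 0.68 and -0.16 ± 0.44. The part of these cells in the Dusp5 and Spry2 differences was not tested.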

How the data were processed

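The deposited table gives log2 CPM per gene and library, which the authors made with STAR 2.7.9a, RSEM 1.3.0 and limma 3.50.3, per the submitters' processing notes; these name the builds mm10 and GRCh38 without a role. Per the file headers, it also holds the authors' log2 fold changes, p-values, adjusted p-values and q-values, and moderated t and log-odds scores; the p-values and fold changes were used for comparison. No source used here states the filter on low genes, and genes below it were not analysed here. Taking 0.5 count as the offset, every value returned an expected count of 2 decimals, and 71.3% of these were whole within 0.01. Library sizes stood in the proportions that TMM scaling gave. Being estimates, the counts were not put into a count model. RSEM divides reads among similar genes, and Dusp5 and Spry1 had fractional counts.

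Groups were compared over all genes and all 7 libraries with limma 3.58.1 (R 4.3.3), letting the prior variance follow the mean level (limma-trend), and Benjamini-Hochberg adjustment, tested on simulated data. The members, gene lists and tests were chosen with earlier results of these data known. All members were described. From each signalling list the rule named the 2 genes with the smallest p and those without overlap of the groups; Dusp5, Spry2 and Dusp6 each had 3 look-alike genes named. Other list genes (Spred1, Spred2, Etv5, Srf, Egr3, Myc, Fos, Egr1) and the positions of Acad12 and Prkrip1 were picked out after the values were seen. So were the progenitor, T and NK, B lineage, macrophage and dendritic cell, and megakaryocyte markers named singly with values. Promoters came from RefSeq, where 8 of 10 members matched.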

Additional observations from a re-analysis of the deposited data

Results flagged for a closer look

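Spry1 in WT-B, at 1.78 log2 CPM, lay far below the other WT libraries (2.56 to 2.60). Its gap to the nearest was 0.951 of the range of the group, above Dixon's critical value for 4 samples. Of 24 genes examined in this way, this was the 1 found, and chance alone marks about 1 in 20 groups. The 5G2del group, with 3 libraries, was not examined.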

How the results depend on the processing

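Over all genes, limma without the trend called 1 gene, Sfrp5, and with 1 library left out between 0 and 1 were called, the 1 being Thbs1 without 5G2del-C; both names were picked out after their values were seen. The voom fit on the recovered counts called 0, with 625 genes at an unadjusted p under 0.05. Members with a lower mean numbered 5 under every other scaling, offset and model tried and between 4 and 7 with 1 library left out (4 without 5G2del-B, 7 without 5G2del-A or WT-B). Dusp5 stayed below WT without overlap under each other scaling and offset, where 2.76% to 3.41% of all genes lay below WT. Leaving out 1 library turned the sign of 5 members in 7 of 70 values and moved 29 more by over 1.5 times, so that of the members Dusp5 and Spry2 alone kept within 1.5 times throughout. Both were known to be lower when the set was chosen, and a ratio passes 1.5 more easily for a difference near 0. Nothing is therefore read from their keeping within it. Of the 14 other genes the rule named, 10 moved by over 1.5 times with a library left out and 0 turned. They were named for a small p or a lack of overlap in the same libraries, which makes a turned sign unlikely by selection. The other scalings, offset, models and filter turned 0 signs of the members and of these other genes. They moved 3 members (Dusp2, Dusp4 and Dusp7, whose differences were near 0) by over 1.5 times. Among these settings, limma without the trend and the filter leave a difference as it is, and TMM scaling returned the deposited values. Those settings could not change a difference or its sign, so they say nothing on stability. Without genes of a mean log2 CPM of 2 or less, Dusp10 and Spry4 left the set, so no count over the members was made. No paired analysis was possible because the columns of the table do not carry the sample numbers.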
